A study of Mus musculus with 12 samples.

Results

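Small nucleolar RNAs (snoRNAs) and small Cajal body RNAs (scaRNAs) were examined in mouse liver after knockdown of the lncRNA mGULL and after its rescue with the human transcript hGULL. The genes were all features typed as snoRNA or scaRNA in the gene annotation whose mean level over the 12 livers was at least 1 TPM (read counts scaled for gene length and library size), which gave 209 genes of 1558 annotated ones and of 55385 features in all. They were chosen on this mean level, so the levels themselves are given as a description and were not tested. Of the other annotated genes, 1231 were listed at 0 in every library and 118 lay above 0 with a mean under 1 TPM. Among the 209 genes, 185 reached a mean of 1 TPM in all 3 groups, 22 in 2 groups and 2 in 1 group.

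snoRNAs are short noncoding RNAs that are mostly processed from the introns of host genes. C/D box snoRNAs bind fibrillarin and guide methylation of ribose in rRNA and in some spliceosomal RNAs, whereas H/ACA box snoRNAs bind dyskerin and guide the conversion of uridine to pseudouridine. A few members of either class are needed for cleavage of the rRNA precursor instead, and scaRNAs guide the same modifications on spliceosomal RNAs in Cajal bodies.

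The livers came from male C57BL6 mice of 7 weeks, 4 in each group, injected with adenoviruses at a total of 500000000 pfu and collected on day 7. Ad-Ctrl mice received the Lac virus, labelled GULL_control, together with the pAdV5 virus. In the Ad-shmGULL group, labelled mGULL_knockdown, a virus with an shRNA against mGULL replaced the Lac virus, and the pAdV5 virus was kept. In the Ad-shmGULL+hGULL group, labelled hGULL_rescue, the shRNA virus was given with a virus for hGULL. All 3 groups thus carried adenovirus, whole liver was sequenced, and the levels of mGULL and hGULL were not analysed here. Hepatocyte markers (Alb, Apoa1, Ttr and 5 others) summed to between 81520 and 130000 TPM per library. In bulk tissue, fewer cells of a type and less RNA per cell cannot be told apart.

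By name, 41 of the 209 genes were C/D box (Snord), 17 H/ACA box (Snora), 18 scaRNA, 131 carried only a Gm number, and 2 (Rnu73b and AF357399) had another name. Expressed genes made up 41.8% of the 98 annotated C/D box genes and 40.5% of the 42 annotated H/ACA genes, against 9.73% of the 1346 unnamed ones. The unnamed genes were in part recognisable by sequence. Letters were read from the GENCODE M39 transcripts of GRCm39, which held 179 of the 209 genes. Both the C box letters TGATGA within the first 25 bases and the D box letters CTGA within the last 20 bases stood in 25 of 39 C/D box genes and in 16 of 108 unnamed ones. The letters ACA at 3 bases from the 3′ end stood in 13 of 15 H/ACA genes and in 53 of 108 unnamed ones. Over all 949 annotated unnamed genes with a sequence, the shares were lower, 5.80% for the pair of C and D box letters and 19.5% for ACA. Only the RNA strand was searched, and a match describes the letters, not a working box.

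The sequences of 5 genes on which the comparisons between groups turn, or that did not move, are shown first, with the C box, D box or terminal ACA letters named above in capitals. Snora31 (chr14:76085345-76085474, plus strand) lies in an intron of Tpt1, which encodes translationally controlled tumor protein. Gm24130 (chr13:65306072-65306222, plus strand) lies outside any gene annotated on its strand. Snord7 (chr11:83185130-83185226, plus strand) and Snord8 (chr14:52447242-52447351, minus strand) guide methylation of the U6 spliceosomal RNA. Snord104 (chr11:106391819-106391888, plus strand) is an abundant C/D box gene.
Snora31: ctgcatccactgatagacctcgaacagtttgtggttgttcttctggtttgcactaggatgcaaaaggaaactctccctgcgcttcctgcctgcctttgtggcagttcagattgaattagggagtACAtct
Gm24130: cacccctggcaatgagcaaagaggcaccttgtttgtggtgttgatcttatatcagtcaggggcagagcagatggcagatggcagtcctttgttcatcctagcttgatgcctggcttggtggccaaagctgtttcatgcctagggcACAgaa
Snord7: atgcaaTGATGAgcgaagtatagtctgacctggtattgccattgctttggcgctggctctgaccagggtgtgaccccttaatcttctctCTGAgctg
Snord8: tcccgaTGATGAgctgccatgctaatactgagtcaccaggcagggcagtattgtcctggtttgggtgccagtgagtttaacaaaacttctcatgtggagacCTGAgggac
Snord104: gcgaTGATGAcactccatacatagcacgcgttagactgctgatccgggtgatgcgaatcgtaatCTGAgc

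Levels ranged from 1.04 TPM for Gm25896 to 849 TPM for Gm25395, with a median of 5.23 TPM. At the limit, Gm25896, Snord111 (1.06 TPM) and Gm26147 (1.08 TPM) were just inside, and Gm25715 (0.965 TPM), Gm22488 (0.950 TPM) and Gm27619 (0.943 TPM) just outside. The 5 highest genes held 48.8% of the summed level. The classes were spread differently along this range, with medians of 20.9 TPM for scaRNAs, 8.82 TPM for C/D box genes, 8.40 TPM for H/ACA genes and 4.28 TPM for unnamed genes. The 18 scaRNAs held 49.98% of the summed level, the 131 unnamed genes 28.0%, the 17 H/ACA genes 12.2% and the 41 C/D box genes 9.51%. The classes differed in length, with medians of 139.5 nt for scaRNAs, 131 nt for unnamed genes, 137 nt for H/ACA genes and 79 nt for C/D box genes. How completely RNAs of each length entered the libraries was not tested. The shares therefore describe these libraries and not the RNA content of the liver.

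**Figure D1:**
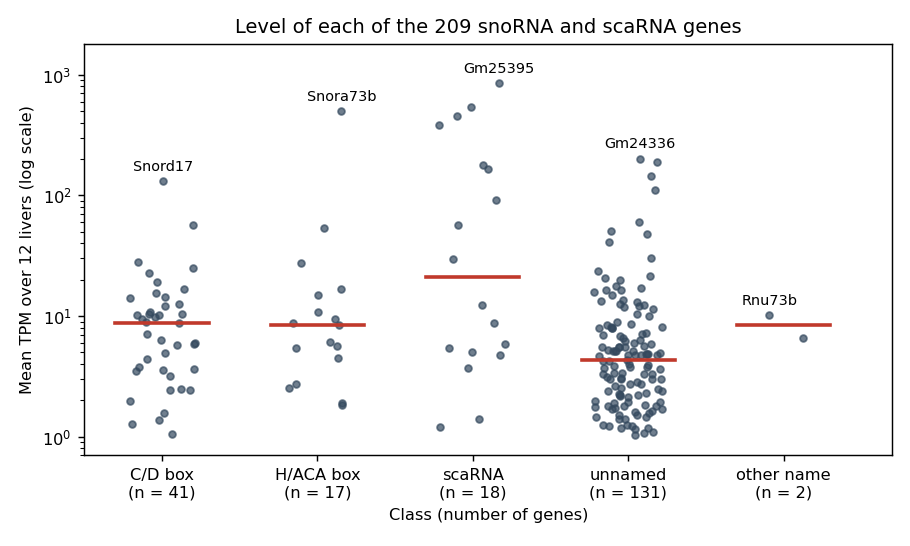
Mean TPM over the 12 livers (log axis) of each of the 209 genes, by class, with the median of each class as a red line and the highest gene of each class named. scaRNAs reached 849 TPM, and only 1 C/D box gene, Snord17, exceeded 100 TPM.

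The most abundant gene, Gm25395, is a scaRNA of 272 nt within an intron of Atg16l1, an autophagy gene that also hosts Scarna6 (167 TPM). Gm22442 (536 TPM, in Chd3), Scarna2 (451 TPM), which guides methylation of the U2 spliceosomal RNA, Gm22009 (381 TPM, in Kpna4) and Scarna13 (178 TPM) followed among the scaRNAs. Of the H/ACA genes, Snora73b reached 502 TPM and held 73.5% of the sum of its class, followed by Snora23 (53.5 TPM, in Ipo7) and Snora78 (27.5 TPM, in Snhg9). Snord17 was the highest C/D box gene at 132 TPM, ahead of Snord104 at 56.5 TPM, Snord37 (28.1 TPM, in the elongation factor gene Eef2) and Snord15a (25.2 TPM, in Rps3). Among the unnamed genes, Gm24336 (202 TPM, in Cwf19l1), Gm26448 (191 TPM, in Rpsa), Gm25291 (146 TPM), Gm25835 (110 TPM, in Eif4a1) and Gm24119 (60.03 TPM, in Slc25a3) were highest.

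Snora73a and Snora73b, also known as U17, take part in processing of the rRNA precursor and have been linked to cholesterol trafficking. Both lie in the noncoding host Snhg3, but their levels differed 89.5-fold (502 against 5.61 TPM). They are each 205 nt long and differ at 7 positions (96.6% identity), so that reads that do not cover these positions could not be assigned, and the level of Snora73a in particular is uncertain. Gm26448 is 89.1% identical to Snora73b over 202 nt and carries the same terminal ACA. Gm25395, at chr1:87704660-87704931, plus strand, holds the C and D box letters instead, and the 3 related RNAs are shown with it, Snora73b from chr4:132079633-132079837, minus strand, Snora73a from chr4:132080086-132080290, minus strand, and Gm26448 from chr9:119958417-119958619, plus strand.
Gm25395: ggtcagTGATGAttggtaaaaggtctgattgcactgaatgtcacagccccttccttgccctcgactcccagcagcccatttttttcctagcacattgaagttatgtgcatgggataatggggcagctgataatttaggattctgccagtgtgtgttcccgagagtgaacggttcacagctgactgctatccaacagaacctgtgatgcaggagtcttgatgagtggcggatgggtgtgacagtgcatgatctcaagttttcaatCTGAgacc
Snora73b: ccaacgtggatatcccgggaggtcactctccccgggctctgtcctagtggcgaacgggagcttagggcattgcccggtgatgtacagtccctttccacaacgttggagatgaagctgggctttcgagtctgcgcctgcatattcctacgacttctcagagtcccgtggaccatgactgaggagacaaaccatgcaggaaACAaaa
Snora73a: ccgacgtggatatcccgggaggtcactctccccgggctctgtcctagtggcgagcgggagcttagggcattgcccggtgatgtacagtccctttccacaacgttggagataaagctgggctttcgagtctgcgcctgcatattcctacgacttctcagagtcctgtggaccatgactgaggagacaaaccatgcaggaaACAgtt
Gm26448: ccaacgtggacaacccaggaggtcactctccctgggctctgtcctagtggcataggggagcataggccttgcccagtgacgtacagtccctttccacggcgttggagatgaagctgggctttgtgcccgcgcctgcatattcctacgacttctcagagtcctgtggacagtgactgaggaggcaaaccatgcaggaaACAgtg

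The depth behind each gene could be recovered. In every library, TPM multiplied by gene length was a whole multiple of 1 constant, the worth of 1 read, for all 179 genes with an M39 length (tolerance 0.01 read). The constant ranged from 66.2 to 149 TPM × nt, so that 1 read on a gene of 100 nt was worth 0.662 TPM at the lowest constant and 1.49 TPM at the highest, in Ad-shmGULL replicate 4. Ad-shmGULL replicates 3 and 4 had the highest constants, and Ad-shmGULL+hGULL replicates 1 to 3 the lowest. The constant depends on the lengths of the genes read as well as on the number of reads, so it does not rank the libraries by total depth. The 209 genes held 6915 to 17186 reads per library, yet the median gene held only 4 to 9, and 106 to 162 genes per library were below 10 reads. Of the 209 genes, 141 averaged under 10 reads per library, 18 averaged 50 or more, and 76 had 0 reads in at least 1 library. For 21 genes with no reference length, the read number rests on the shortest length that gave whole reads.

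Set against counting error, the variance of reads between mice was largest in the abundant genes. This ratio grows with read number at a constant relative spread, so it does not show that abundant genes vary more between mice. The ratio of the within-group variance to that of counting alone had a median of 1.16 for the 83 genes under 5 reads. It was 1.97 for the 50 genes with 10 to 50 reads. For the 18 genes with 50 or more reads, which held 75.3% of the summed level, the median ratio was 15.6, and it reached 141 for Scarna2. The rank correlation of gene length with level was weak over the 209 genes (Spearman's rho 0.07, a description across genes that share libraries). The longest genes nevertheless stood apart. Median levels were 6.34 TPM in the 69 genes under 100 nt, 4.56 TPM in the 122 of 100 to 150 nt and 56.75 TPM in the 18 of 150 nt or longer. Of the 12 genes of 100 TPM or more, 8 were 150 nt or longer.

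A single library stood apart in these RNAs. In Ad-shmGULL replicate 1 the 209 genes summed to 7654 TPM, against 4998 to 5112 TPM in the other Ad-shmGULL livers, 4875 to 6413 TPM in Ad-Ctrl and 5341 to 5609 TPM in Ad-shmGULL+hGULL. It was the highest library for 12 of the 18 best-counted genes. Its median level relative to the mean of the 12 libraries was 1.61 over 14 genes of 150 nt or longer with at least 10 reads, and 1.16 over 12 such genes under 100 nt. Gm24336 was at 100 TPM in this library and at 159 to 243 TPM in the other 11. Features of type snRNA (3925 TPM), ribozyme (2175 TPM), miRNA (24060 TPM) and lncRNA (89130 TPM) were likewise at their highest there. Their part in the results was not tested.

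**Figure D2:**
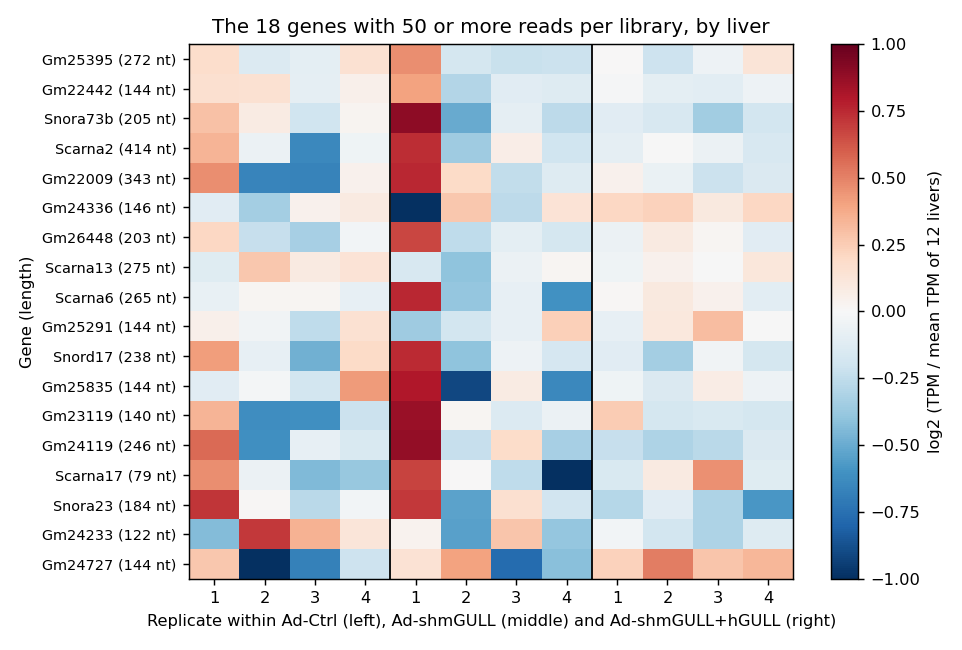
Level of the 18 genes with an average of 50 or more reads per library, as log2 of TPM over the mean TPM of the 12 livers, colour from -1 (blue) to 1 (red). Columns are livers within the 3 groups, rows are genes with their lengths, and replicate 1 of Ad-shmGULL is the reddest column.

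The summed level of each class overlapped between all 3 groups. The C/D box genes summed to 545 ± 45.5 TPM in Ad-Ctrl, 536 ± 118 TPM in Ad-shmGULL and 510 ± 39.6 TPM in Ad-shmGULL+hGULL (SD, n = 4). The H/ACA genes summed to 716 ± 119, 721 ± 285 and 611 ± 35.1 TPM, and the scaRNAs to 2765 ± 387, 2879 ± 785 and 2718 ± 70.03 TPM. The unnamed genes summed to 1524 ± 127, 1560 ± 132 and 1597 ± 37.5 TPM. Without replicate 1, the Ad-shmGULL means became 479, 581, 2487 and 1501 TPM for the same 4 classes.

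**Figure D3:**
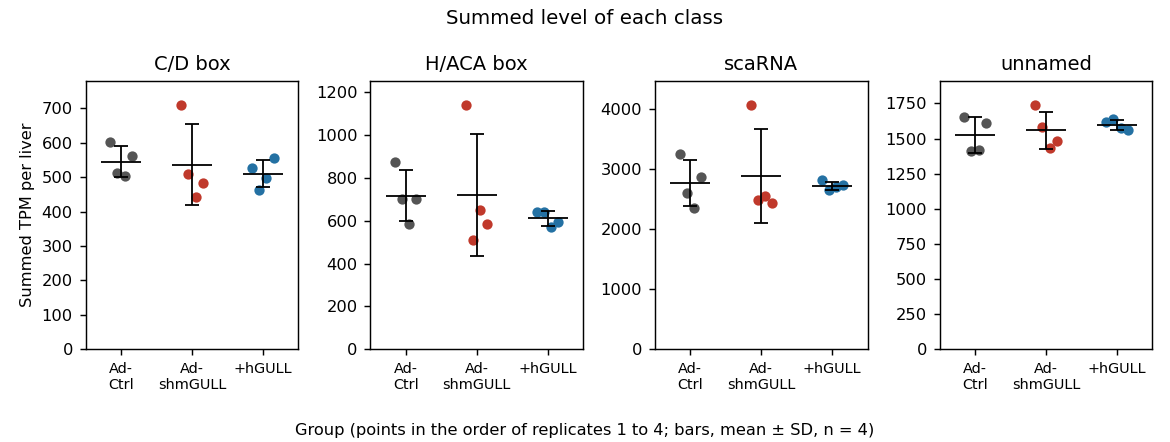
Summed TPM per liver of the C/D box, H/ACA, scaRNA and unnamed genes, with 4 livers per group as points in replicate order and the mean ± SD as bars. The groups overlap in every panel, and the highest point in each is replicate 1 of Ad-shmGULL.

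The abundant genes showed no difference between groups that passed the threshold in knockdown minus control or in rescue minus knockdown with all 12 libraries. The threshold was that of the study, a change of over 0.5 on the log2 scale together with P under 0.05 before any adjustment, here in limma on log2(TPM + 1). For Gm25395, Ad-Ctrl livers held 961, 774, 793 and 945 TPM, Ad-shmGULL livers 1171, 752, 726 and 730 TPM, and Ad-shmGULL+hGULL livers 852, 736, 821 and 928 TPM. The knockdown livers other than replicate 1 lay below every control liver, and the rescue livers overlapped the control livers. The knockdown-minus-control difference was -0.06 ± 0.15 (SE, log2) with a 95% interval from -0.39 to 0.27, and without replicate 1 it was -0.23 ± 0.10 with an interval from -0.46 to -0.002. For Snora73b it was -0.04 ± 0.23 with an interval from -0.55 to 0.47, and without replicate 1, -0.33 ± 0.13 with an interval from -0.61 to -0.06. For Gm22442 it was -0.10 ± 0.13 with an interval from -0.38 to 0.18, and without replicate 1, -0.25 ± 0.08 with an interval from -0.43 to -0.07. Without that library the 3 remaining knockdown livers were all below all control livers for 3 of the 18 best-counted genes, Gm25395, Gm22442 and Scarna6. Separation of 3 against 4 livers arises more easily than 4 against 4, and its share over all features was not counted. For Scarna6, knockdown replicate 3 and control replicate 4 were at 0.943 and 0.9448 of its mean level. Without replicate 1, no difference of these 3 genes or of Snora73b reached 0.5 in size. The counts of Snord104 were 32, 35, 55 and 42 reads in Ad-Ctrl, 46, 44, 26 and 30 in Ad-shmGULL, and 59, 47, 58 and 53 in Ad-shmGULL+hGULL. Its means were 56.2 ± 8.18, 56.6 ± 9.99 and 56.7 ± 9.62 TPM (SD, n = 4), and the interval of each difference ran from -0.32 to 0.33. Over the 18 best-counted genes, the differences did not exceed 0.44 in size in knockdown minus control, 0.49 in rescue minus knockdown or 0.74 in rescue minus control. Without Ad-shmGULL replicate 1 they reached 0.51 in knockdown minus control, where Gm25835 then passed as lower, and 0.58 in rescue minus knockdown, where 0 of the 18 passed. Their median moved from -0.06 to -0.23 in knockdown minus control, with 13 of 18 below 0, and from -0.02 to 0.10 in rescue minus knockdown, with 14 of 18 above 0. That library was singled out on these same genes, as the highest for 12 of the 18. Leaving it out was bound to lower most of their knockdown values. The shifts and the intervals without it are a description, over genes that share the same livers. Over all features tested, the median moved from 0.09 to 0.12 and from 0.09 to 0.06 in the same comparisons. Half-widths of the 95% intervals had a median of 0.49 (log2) in the 18 best-counted genes and 0.94 in the 83 genes under 5 reads.

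After knockdown, 15 of the 209 genes passed the threshold, 9 higher and 6 lower, which was 7.18% against 7.65% of the 16378 features tested (5.35% higher and 2.3% lower). By class these were 1 of 41 C/D box genes, 2 of 17 H/ACA genes, 1 of 18 scaRNAs and 11 of 131 unnamed genes. The median log2 fold change was -0.005 over the 209 genes and 0.09 over all features tested. After scaling by the median of ratios the split became 8 higher and 15 lower, with a median of -0.09 over the 209 genes and -0.003 over all features. The 4 mice of the groups lay fully apart for 5 genes (2.39%), against 8.99% of all features tested. At an adjusted p under 0.05 in limma (Benjamini-Hochberg over 16378 features), 2 of the 209 genes passed, Snora31 and Gm25116, against 529 features (3.23%) in all.

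Snora31, an H/ACA RNA of 130 nt, was lower after knockdown and back at the control level in the rescue group. Ad-Ctrl livers held 27.7, 17.9, 15.02 and 19.2 TPM, from 32, 20, 23 and 31 reads. Ad-shmGULL livers held 9.33, 14.2, 8.26 and 9.15 TPM, from 12, 25, 8 and 8 reads. Ad-shmGULL+hGULL livers held 22.2, 21.1, 18.3 and 18.3 TPM, from 43, 40, 36 and 26 reads. Every knockdown liver was below every liver of either other group. The difference was -0.89 ± 0.18 (SE, log2) in knockdown minus control (adjusted p = 0.0241 in limma, exact two-sided permutation p = 0.0286, the smallest 4 against 4 can give). It was 0.92 ± 0.18 in rescue minus knockdown, with an unadjusted P of 0.000235 and an adjusted p of 0.282 in limma, and 0.03 ± 0.18 in rescue minus control, with an interval from -0.36 to 0.42. Summed over each group, the read rate in knockdown was 0.554 of control (95% exact interval from counting alone 0.390 to 0.777). The host Tpt1 was at 258 ± 22.6, 249 ± 64.5 and 301 ± 19.7 TPM (SD, n = 4) in the same order of groups, a knockdown-minus-control difference of -0.09 ± 0.16 that did not pass the threshold.

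Gm25116, an unnamed RNA of 122 nt on chromosome 18 within Mib1, was higher in both groups that received the shRNA virus. Control livers held 0.921, 0, 0.696 and 0.660 TPM, Ad-shmGULL livers 3.31, 1.81, 4.40 and 4.88 TPM, and Ad-shmGULL+hGULL livers 1.65, 2.81, 4.88 and 3.75 TPM. All control livers lay below all others, but these levels stood on 3, 15 and 22 reads per group. Every control liver was under 1 TPM, so the gene entered the set only through the groups in which it was high. The log2 fold change was 1.54 ± 0.30 (SE) in knockdown minus control (limma adjusted p = 0.0194) and 1.43 ± 0.30 in rescue minus control (limma adjusted p = 0.0414). The ratio of read rates in the first comparison was 5.54, with a counting interval from 1.57 to 29.8.

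Most of the other genes that passed after knockdown rested on few reads. Snord7 rose by 1.38 ± 0.36 (log2), from 0, 1.20, 1.75 and 1.66 TPM in Ad-Ctrl to 6.25, 3.80, 2.77 and 4.60 TPM in Ad-shmGULL, and the groups did not overlap. It held 5 reads in all control livers together and 16 in the knockdown livers. Gm24130 held 4, 4, 8 and 0 reads in Ad-Ctrl and 0 reads in every Ad-shmGULL liver, a fall of 4.82-fold when the 0 is replaced by a floor of 3 reads over the group. This value leaves out the counting error of the control reads and the spread between mice, so it is not a lower limit. The rescue livers held 6, 6, 4 and 6 reads of Gm24130. Gm24751 (1.31 ± 0.35 log2) was higher on 2 reads in the control group against 10. Gm26225 (-1.42 ± 0.47) and Gm23663 (-1.33 ± 0.41) were lower on 16 against 2 and 10 against 2 reads. Among genes with more reads, Gm22806 (29 against 59 reads, in Cks2), Gm25128 (23 against 43, in Ddx39b) and the scaRNA Gm23751 (15 against 36, in Chd4) were higher by 0.95, 0.96 and 1.12 (log2).

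In rescue minus knockdown, 17 of the 209 genes (8.13%) passed the threshold, 9 higher and 8 lower, against 3% of all features tested (2.33% higher and 0.672% lower). By class, 4 of 41 C/D box genes, 4 of 17 H/ACA genes, 0 of 18 scaRNAs and 9 of 131 unnamed genes passed. In the 83 genes with under 5 reads the share was 10.8%, and in the 18 genes with 50 or more reads 0 passed. At an adjusted p under 0.05 limma called 0 of the 209 genes and 0 of the 16378 features, with 17 and 1757 at an unadjusted P under 0.05. The median log2 fold change was 0.08 over the 209 genes and 0.09 over all features. The groups lay fully apart for 9 genes (4.31%), against 6.38% of all features.

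Besides Snora31, 4 genes passed in both comparisons with opposite signs, Snord7, Snora34, Gm24130 and Gm24412, so that 5 of the 209 genes did so. The share over all features is not given here, so the count is not read as a trait of these RNAs. The comparisons share the knockdown livers, whose deviations enter both with opposite signs. Gm24130 was at 2.67, 2.72, 1.75 and 3.64 TPM in the rescue livers, against 0 in all knockdown livers. Snord7 was at 0.692, 2.82, 2.73 and 0.944 TPM in the rescue livers, a difference of -0.99 ± 0.36 (log2) from knockdown, and here the groups overlapped. Gm24412 held 8, 4 and 16 reads and Snora34 held 11, 20 and 18 reads in the control, knockdown and rescue groups. Of the 5, Snora31 alone kept both calls in all 23 alternatives tried. Gm24130 lost its first call under array weights, and the second calls of Snord7 and Snora34 were lost without, among others, Ad-shmGULL replicate 1 or rescue replicate 1. Gm24412 lost its first call in 11 of 22 alternatives.

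Snord8, the other U6 guide, was higher in rescue than in knockdown. Ad-shmGULL livers held 0.919, 2.68, 4.88 and 1.35 TPM and rescue livers 5.50, 5.60, 7.82 and 7.49 TPM, and the groups did not overlap. The difference was 1.26 ± 0.41 (log2), on 10 and 40 reads, while Ad-Ctrl livers (2.04, 10.6, 6.95 and 2.93 TPM) spanned both. Gm26397, in Tomm20, was likewise higher in every rescue liver (15.8 to 17.1 TPM) than in every knockdown liver (3.02 to 14.4 TPM), on 121 and 38 reads, with a difference of 1.06 ± 0.36. It overlaps an exon of its host, as do 53 of the 209 genes, and host reads there cannot be told apart from its own. Gm22980 was lower in rescue (3.84, 0.978, 3.78 and 0 TPM) than in knockdown (5.78, 7.37, 9.59 and 6.37 TPM) by 1.65 ± 0.40 on the log2 scale, on 9 and 19 reads. Gm22299 was lower by 1.35 ± 0.45 (5 against 18 reads) without overlap, and Gm26158 by 1.07 ± 0.47 (13 against 20 reads) with overlap. The call of Gm26158 was lost in 8 of 22 alternatives, among them when any one of Ad-shmGULL replicates 2, 3 and 4, Ad-Ctrl replicate 1 and rescue replicates 2 and 4 was left out. Snord49b was higher by 1.19 ± 0.48 (31 against 11 reads), also with overlapping groups, and it did not pass without rescue replicate 1 or 2. After rescaling to the summed level of snoRNAs and scaRNAs, the split of this comparison was 12 higher and 6 lower, with array weights 26 and 7, and without Ad-shmGULL replicate 2, 20 and 7.

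**Figure D4:**
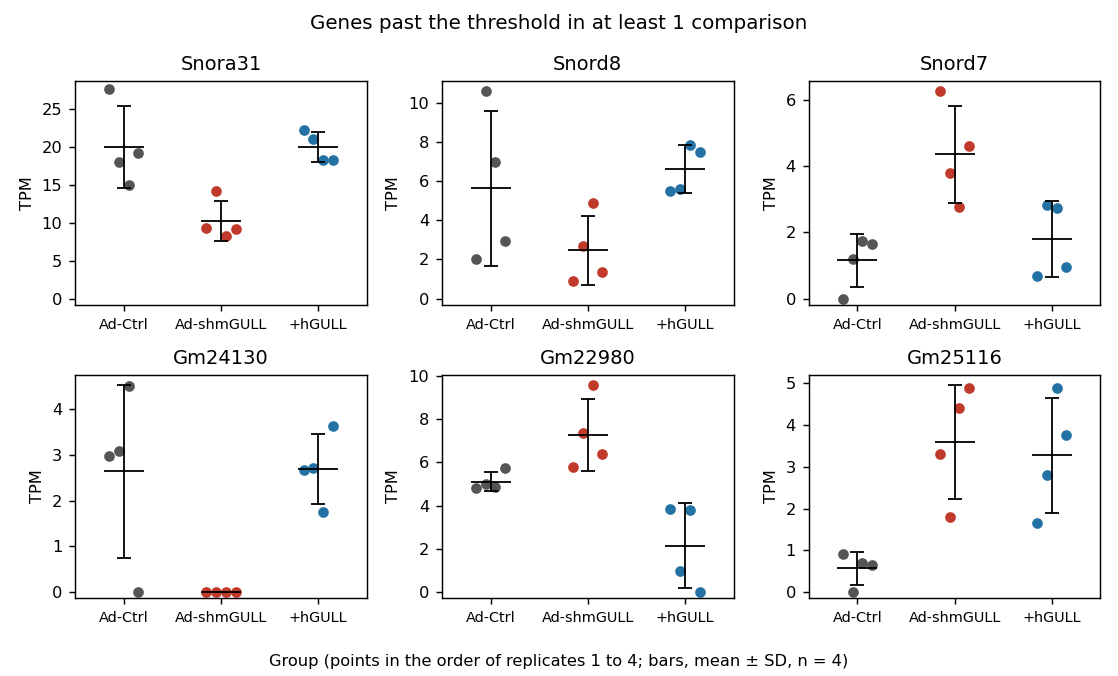
TPM in each liver of 6 genes that passed the threshold in at least 1 comparison, with points in replicate order and the mean ± SD (n = 4) as bars. Snora31 is lowest in all 4 knockdown livers, and the other 5 genes stand on fewer reads.

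In rescue minus control, 19 genes (9.09%) passed, 11 higher and 8 lower, against 7.49% of all features tested (6.84% higher and 0.641% lower). Of these, 16 were unnamed, and the C/D box, H/ACA and scaRNA classes held 1 each (Snord11, Snora30 and Gm23751). All 8 lower genes averaged under 10 reads. The median log2 fold change was 0.08 over the 209 genes and 0.17 over all features. After scaling by the median of ratios the split was 7 higher and 12 lower, and the median of all features moved from 0.17 to -0.003. The groups lay fully apart for 8 genes (3.83%), against 22.3% of all features.

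Gm24727 was the only gene with 50 or more reads to pass in any comparison. Its Ad-Ctrl livers held 49.95, 19.4, 25.9 and 35.8 TPM and its rescue livers 48.5, 59.0, 50.1 and 52.1 TPM, a difference of 0.74 ± 0.28 (log2) with overlapping groups, which did not pass without Ad-Ctrl replicate 2 or 3. Gm24091, an unnamed RNA, stepped down across the groups, from 10.8, 11.2, 12.3 and 6.79 TPM in Ad-Ctrl to 4.87, 8.88, 6.47 and 5.38 TPM in Ad-shmGULL and 4.86, 4.95, 5.58 and 3.31 TPM in Ad-shmGULL+hGULL. Control and rescue livers did not overlap, and the difference was -0.98 ± 0.20 (limma adjusted p = 0.0414) on 35 and 22 reads. Of the 209 genes, 2 had an adjusted p under 0.05, Gm24091 and Gm25116, against 352 of 16378 features (2.15%). The largest other rises were those of Gm22027 (1.08 ± 0.39, 23 against 7 reads) and Snord11 (1.08 ± 0.39, 19 against 6 reads), and the largest falls those of Gm25821 (-1.38 ± 0.61, 13 against 27 reads), Gm22299 (-1.23 ± 0.45, 5 against 17 reads) and Gm22980 (-1.23 ± 0.40, 9 against 15 reads). Gm22027 did not pass without Ad-Ctrl replicate 2, Snord11 without rescue replicate 1, Gm22299 without Ad-Ctrl replicate 2 or rescue replicate 4, and Gm25821 in 9 of 22 alternatives. Of the 209 genes, 5 passed in knockdown minus control and with the same sign in rescue minus control, Gm25116, Gm24091, Gm23751, Gm22786 and Gm23663. The comparisons share the control livers, whose deviations enter both with the same sign, and the share over all features is not given here. Of these 5 genes, Gm25116 alone kept both calls in every alternative that tested it. Gm22786 lost its first call in 6 and its second in 11 of 23 alternatives, Gm24091 its first under array weights, and Gm23751 and Gm23663 their second in 4 and 3 alternatives, both of them without Ad-Ctrl replicate 1.

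Across the 3 comparisons, 36 of the 209 genes passed at least once and 173 never did. The matching share over all features is not given here. Per comparison, in the order above, 7.18%, 8.13% and 9.09% of the 209 genes passed, against 7.65%, 3% and 7.49% of all features. The 36 genes had a median of 4.5 reads per library, against 7.5 in the others, 30 of them averaged under 10 reads, and 26 were unnamed. Gm23663 and Gm25544 reached a mean of 1 TPM in 1 group only, so that the choice by mean level already favoured a difference between groups for them. The same limit applies to the 22 genes that reached it in 2 groups. Gm25116, under 1 TPM in every control liver, and Gm24130, at 0 in every knockdown liver, were among these. Near-identical annotated copies (95% identity over 90% of the length) existed for 25 of the 209 genes and for 5 of the 36.

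**Figure D5:**
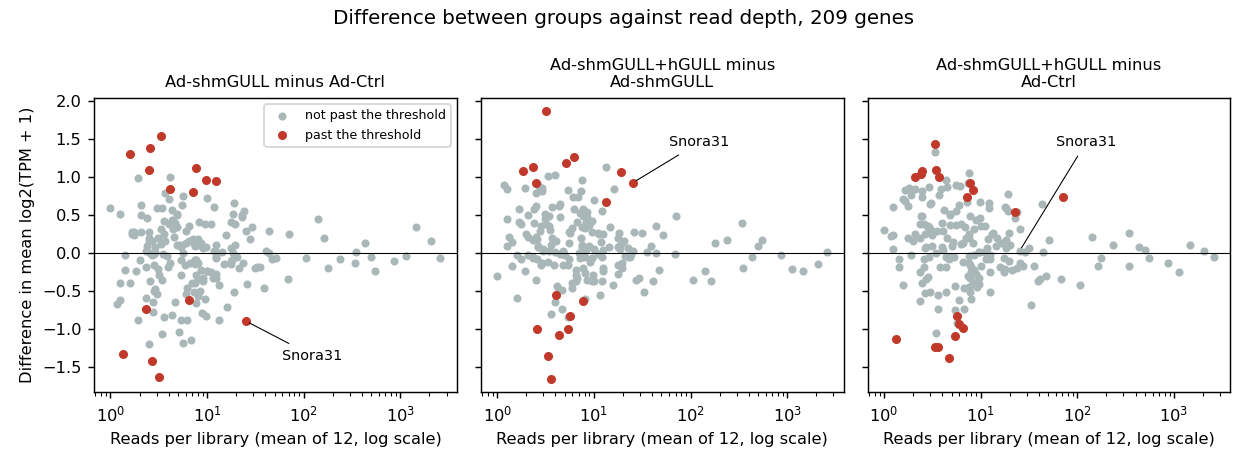
Difference in mean log2(TPM + 1) between groups for each of the 209 genes against its mean reads per library (log axis), in the 3 comparisons, with genes past the threshold in red. Red points gather below 10 reads, Snora31 lies at 25.3 reads, and the differences narrow as reads increase.

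The snoRNAs needed for processing of the rRNA precursor were followed as a list. Of 11 listed genes, 9 were found in the table, and Snord3a and Snord3b-ps1 were not found under these names. Of the 9, 5 were at 0 in every library (Snord14a, Snord14c, Snord14d, Snord14e and Snord22) and 4 were tested. Snord118, also known as U8 and needed for maturation of the large-subunit rRNA, held 41.6, 24.2, 18.9 and 19.7 TPM in Ad-Ctrl, 58.4, 13.6, 17.9 and 15.4 TPM in Ad-shmGULL, and 23.4, 13.7, 16.7 and 9.49 TPM in Ad-shmGULL+hGULL. Its knockdown mean of 26.3 TPM rested on replicate 1, and no difference passed the threshold. Snord13, which helps to modify the small-subunit rRNA, was at 8.99 ± 6.49, 13.4 ± 7.04 and 8.41 ± 4.24 TPM (SD, n = 4) and did not pass either. Of the 4, Snora73a alone passed, in rescue minus knockdown (0.67 ± 0.27 log2), on 32 and 79 reads. Its groups overlapped, it did not pass in 6 of 23 alternatives, among them scaling by the median of ratios, it shares its sequence with Snora73b as stated above, and its abundant copy differed by -0.21 ± 0.23 in the same comparison, or by 0.08 ± 0.13 without Ad-shmGULL replicate 1. Of the list linked to cholesterol trafficking, Snord60 was at 0 in every library, so that the same 2 Snora73 genes remained.

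The 3 tested genes in the introns of Rpl13a, Snord32a, Snord34 and Snord35a, did not pass in any comparison, and Snord33 and Snord35b were at 0 in every library. Snord35a was at 11.7 ± 6.36, 6.13 ± 2.24 and 8.78 ± 4.17 TPM, a knockdown-minus-control difference of -0.79 ± 0.37 with an interval from -1.60 to 0.02. The host Rpl13a was at 14.5 ± 1.30, 13.5 ± 2.57 and 15.5 ± 1.11 TPM. Of 10 intron snoRNAs listed for the noncoding host Gas5 and 8 for Snhg1, only 4 entries (Snord80 more than once) and 1 entry were found under these names. All of them were at 0 in every library. Their hosts were present, Gas5 at 31.35 ± 2.39 TPM and Snhg1 at 9.13 ± 0.596 TPM in Ad-Ctrl (SD, n = 4). The cause of the 0 values was not tested, and they need not mean that the RNAs were absent. All 19 features of the imprinted clusters were also at 0 in every library, among them the Snord116 copies.

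Host genes annotated on the same strand were found for 175 of the 179 genes that could be placed, 145 hosts in all, 129 of them protein-coding and 16 noncoding, and 27 genes lay in 16 hosts that encode ribosomal proteins. Calls were few among the hosts and among the RNAs they carry, so the number of joint calls says little about whether they move together. Of 136 tested hosts, 5 passed in knockdown minus control, 1 in rescue minus knockdown and 7 in rescue minus control. The shares of all features that passed were 7.65%, 3% and 7.49%. Of the 165 genes with a tested host, 10, 11 and 14 passed. The gene carried by a called host was itself called in 0, 1 and 0 cases, and the 1 case was Snora73a with Snhg3, which rose by 0.52 ± 0.21 (log2) from knockdown to rescue. Across the 53 genes with 10 or more reads and a tested host, Pearson's r between the difference of the gene and that of its host was 0.37, 0.05 and 0.07 in the 3 comparisons (Spearman's rho 0.26, 0.17 and 0.10), a description over genes that share the same 12 libraries. Genes within 1 host could differ in level, 5.10-fold between Gm25395 and Scarna6 in Atg16l1, 2.84-fold among Snord70, Gm26287 and Snord11 in Nop58 and 1.75-fold among the Rpl13a genes.

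Among the proteins that bind these RNAs, none of the 4 C/D box proteins (Fbl, Nop56, Nop58 and Snu13) passed the threshold in any comparison, and Fbl, the methyltransferase, was at 13.3 ± 0.826, 13.1 ± 1.69 and 14.1 ± 0.401 TPM (SD, n = 4). Of the 4 H/ACA proteins, Nop10 passed once, with 21.5, 56.1, 46.0 and 45.1 TPM in the knockdown livers and 61.5, 65.1, 54.2 and 69.7 TPM in the rescue livers, a difference of 0.63 on the log2 scale. This was 0.35, under the threshold, without Ad-shmGULL replicate 1. Dkc1, the pseudouridine synthase, was at 11.7 ± 1.97, 9.91 ± 0.452 and 11.7 ± 1.69 TPM and did not pass. Of the 13 tested assembly and trafficking factors, 0 passed in any comparison in limma, and of 29 tested host RNAs on a list of known hosts 1 passed, Snhg3 in rescue minus knockdown. This call was lost in 9 of 23 alternatives, among them without Ad-shmGULL replicate 1 (0.39 log2). Of the same list, Hspa8 and Tnpo2 had an adjusted p under 0.05 in rescue minus control in limma (0.0414 and 0.0498) at differences of 0.42 each, under the size of 0.5, and held it in 8 of 23 alternatives each. Of 8 other structured small RNAs tested, Rn7s2, a 7SL RNA gene of the signal recognition particle, was lower in knockdown minus control by 2.47 ± 0.37 on the log2 scale (limma adjusted p = 0.00856) and in rescue minus control by 2.22 ± 0.37 (limma adjusted p = 0.0358). Its limma adjusted p was under 0.05 in 22 of 23 alternatives in the first comparison. In the second it was so in 10 of 23 and reached 0.141, although neither call was lost in any alternative. A second 7SL gene, Rn7s1, did not pass, with differences of -0.54 ± 0.25 (limma adjusted p = 0.257) and -0.05 ± 0.25. How multi-mapping reads were counted is not given, so the fall of Rn7s2 does not describe 7SL RNA as a whole. Terc and Rmrp, each entered more than once among the features, were at 0 in every library. How reads shared between entries were counted is not given, so this need not mean that the RNAs were absent.

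Markers of other cells were compared beside these results. Of 8 hepatocyte markers, 3 passed as lower in knockdown minus control and 2 in rescue minus control. Of 3 tested neutrophil markers, 2 passed as lower in rescue minus knockdown (summed level 118 to 272 TPM in knockdown and 88.4 to 139 TPM in rescue), and neither passed without Ad-shmGULL replicate 1. Of 5 proliferation markers, 4 passed as higher in rescue minus control (26.5 to 61.5 TPM in control and 53.6 to 89.6 TPM in rescue). Summed endothelial markers ranged from 85.0 to 149.5 TPM in control and from 141 to 185 TPM in knockdown, with 1 of 5 higher. Of 7 Kupffer cell markers 1 was lower in each comparison with control, of 8 T and NK cell markers 1 (Gzmb) was higher in rescue minus knockdown, but not without Ad-shmGULL replicate 1, and of 3 cholangiocyte markers 1 was higher in knockdown minus control. Of 3 B cell, 5 stellate and 5 erythroid markers, 0 passed in any comparison in limma. Of the proliferation markers, 1 was higher in knockdown minus control. The calls of Marco (a Kupffer cell marker), Fgb (a hepatocyte marker) and Cdk1 (a proliferation marker) in knockdown minus control were also lost without Ad-shmGULL replicate 1. The part of these markers in the differences above was not tested.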

How the data were processed

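Liver RNA of 12 mice was sequenced in strand-specific libraries. Per the labels, the submitters' processing notes and the study's methods, the authors used fastp 0.23.2, FastQC 0.11.8, HISAT2 2.2.1.0, the GRCm38.p6 build, featureCounts and Subread 2.0, and they deposited TPM values on GENCODE VM24 genes that sum to 1000000 per library. TPM divides by gene length and by the summed rate of all RNAs in a library, so an abundant class alters every other value. How multi-mapping reads were counted is not given in the sources used here, nor is whether 1 count was a read or a read pair. For genes with copies or repeated entries, a value of 0 therefore need not mean that the RNA was absent. From the deposited TPM values, reads per gene were recovered from gene lengths of GENCODE M39 (179 genes) or RefSeq GRCm38.p6 (9), and otherwise from the shortest fitting length (21). Intervals based on reads cover counting error only, and a floor covers only that of the group at 0. Groups were taken from the sample labels, which number 4 replicates in each and tie no number to a litter, batch or day.

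Differences were fitted with limma 3.58.1 (R 4.3.3) on log2(TPM + 1), for 16378 features with a mean TPM of at least 1, in 1 model of 3 groups with no covariate and a mean-variance trend (9 residual degrees of freedom). Fold changes on this scale understate the change of low genes. The threshold for a call was a difference of over 0.5 (log2) and P under 0.05 without adjustment. P-values adjusted by Benjamini-Hochberg over all features, with a limit of 0.05, were counted apart from this. The procedure was tested on simulated data. Exact permutation tests were two-sided. Sequence identity came from blastn 2.17.0, other steps from Python 3.11.15, scipy 1.17.1 and matplotlib 3.10.9. Coordinates, hosts and sequences are those of GRCm39. The genes and lists were chosen with earlier results of these data known. Named genes were the 5 highest of each class, those with an adjusted p under 0.05, the 3 largest rises and falls past the threshold in each comparison, those next to the 1 TPM limit, and the listed genes. Gm26397, Gm24727, Snora34, Gm24412 and other genes past the threshold were named after their values were seen. Alternatives were a pseudocount of 0.1, no filter or a mean of at least 5 TPM, 4 other scalings, a fit on the compared groups alone, limma without its trend, weights per array, a replicate block, and leaving out each mouse. No sample or column was left out.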

Additional observations from a re-analysis of the deposited data

Results flagged for a closer look

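In 10 of 129 groups of 4 livers examined, 1 liver lay far from its group (by the gap to the nearest liver relative to the group's range, which chance gives in about 1 in 20 groups), and 5 of the 10 were Ad-shmGULL replicate 1. In that library Gm25395 was at 1171 TPM against 726 to 752 TPM in the other knockdown livers, Gm26448 at 303.8 against 160 to 179 TPM, and Snord118 at 58.4 against 13.6 to 17.9 TPM. The scaRNAs summed there to 4054 TPM against 2431 to 2547 TPM, and all 209 genes to 7654 TPM against 4998 to 5112 TPM. In Ad-shmGULL replicate 2, Snora78 was at 15.5 TPM against 26.1 to 27.3 TPM and AF357399 at 13.0 TPM against 3.22 to 4.76 TPM. Snord37 was at 18.9 TPM in Ad-Ctrl replicate 4 against 29.9 to 31.8 TPM. Gm24751 was at 2.29 TPM in Ad-Ctrl replicate 2 against 0 in the other control livers, and at 0.897 TPM in Ad-shmGULL+hGULL replicate 4 against 1.30 to 1.34 TPM, where the difference is 1 read against 2.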

How the results depend on the processing

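For the knockdown against control, the rescue against knockdown and the rescue against control, 15, 17 and 19 genes passed the threshold and 2, 0 and 2 had an adjusted p under 0.05 in limma. With a mean of at least 5 TPM, 110 of the 209 genes were left and 6, 7 and 9 passed, with 1 at an adjusted p under 0.05 in each comparison with control. Array weights gave 26, 33 and 35 genes, and 15 at an adjusted p under 0.05 in rescue minus control. Scaling by the median of ratios gave 23 and quantile normalization 24 in knockdown minus control, and only the groups compared gave 31 in rescue minus control. At an adjusted p under 0.05, knockdown minus control fell to 0 with no filter or with only the groups compared and to 1 when rescaled to the sum over snoRNAs and scaRNAs. Rescue minus control fell to 1 with a pseudocount of 0.1 and to 0 with no filter, without the trend and under each of the 4 other scalings. Leaving out 1 mouse gave 15 to 26, 13 to 27 and 19 to 24 genes, and 1 to 4, 0 to 1 and 0 to 5 at an adjusted p under 0.05. Knockdown minus control rose to 26 without Ad-Ctrl replicate 1 or Ad-shmGULL replicate 3, to 25 without Ad-shmGULL replicate 2 and to 23 without Ad-shmGULL replicate 1, and rescue minus knockdown to 27 without Ad-shmGULL replicate 2. The cause was not tested. At an adjusted p under 0.05, knockdown minus control gave 1 without Ad-Ctrl replicate 2 and 4 without Ad-shmGULL replicate 3, rescue minus knockdown gave 1 without Ad-Ctrl replicate 4, and rescue minus control gave 5 without Ad-Ctrl replicate 1 and 0 without any of Ad-Ctrl replicates 2 to 4, Ad-shmGULL replicate 4 and the 4 rescue mice. Same-numbered mice did not deviate together (correlations from -0.24 to 0.15), and with a replicate block the counts were 20, 22 and 22, with 3, 0 and 2 at an adjusted p under 0.05. Of the 51 calls, 9, 7 and 5 stood in every alternative that tested the gene, among them both calls of Snora31 (from -1.05 to -0.73 and from 0.83 to 1.08 log2), whose adjusted p in knockdown minus control was under 0.05 in 17 of 23 alternatives and ranged from 0.00761 to 0.0928. For Gm25116 the adjusted p ranged from 0.0182 to 0.0568 in knockdown minus control and from 0.00721 to 0.142 in rescue minus control, and for Gm24091 from 0.0153 to 0.142 in the latter. No call changed sign. Depth limits most of the genes, 141 of which averaged under 10 reads.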
